A study of Mus musculus with 16 samples.

Results

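Metallothioneins bind zinc and copper, and the transcription factor Nrf2 drives a battery of antioxidant enzymes. Expression of 10 genes of these kinds was followed in mouse brain 24 h after a stroke: the metallothioneins Mt1, Mt2 and Mt3, and the Nrf2 target genes Slc7a11, Gclc, Gclm, Txnrd1, Srxn1, Nqo1 and Osgin1. The genes were chosen by name, with earlier results of these data known. Each was read from the probe set whose only symbol in the platform annotation was that gene. All 10 were found, each with 1 such probe set, among 19938 genes with a value.

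Metallothioneins are small, cysteine-rich proteins that hold zinc and copper and give up zinc when their thiols are oxidised. Mt1 and Mt2 are made by many cell types, in brain above all by astrocytes, and are induced through the metal-sensing factor Mtf1, by glucocorticoids and by cytokines acting through Stat3, whereas Mt3 is a brain form made in astrocytes and neurons that responds little to these signals. Nrf2, encoded by Nfe2l2, is held in the cytoplasm and degraded through Keap1. When oxidants modify Keap1, Nrf2 enters the nucleus and binds antioxidant response elements in genes for glutathione synthesis, thioredoxin reduction and quinone detoxification.

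The study used 16 Affymetrix Mouse Gene 1.0 ST arrays, 4 in each of 4 groups of male mice aged 8 weeks. The groups were C57BL/6 mice in the naive state, C57BL/6 mice 24 h after permanent middle cerebral artery occlusion (pMCAO, a lasting block of the main artery to the lateral forebrain), naive mice labelled TNF knockout, and mice labelled TNF knockout 24 h after pMCAO. Total RNA came from frozen brain, so the infarct and the tissue around it may have been mixed with the remaining brain. Naive mice had no surgery, no sham-operated group was analysed here, and the labels give neither the knockout allele nor whether replicates were separate animals. The p-values therefore measure only the spread between these samples. Tnf, the targeted gene, went against the label: its group means were 5.31 and 5.57 in naive and stroke C57BL/6 arrays and 6.41 and 6.81 in the arrays labelled TNF knockout, on a log2 scale. The difference was 1.11 ± 0.14 (SE) in naive arrays and 1.24 ± 0.14 in stroke arrays (limma, adjusted p = 0.000558 and 0.0001), so "labelled TNF knockout" is used throughout and no direction between genotypes is read as an effect of losing Tnf. The sample names of the C57BL/6 arrays carry the prefix KL42, and those of the arrays labelled TNF knockout carry KL76 or KL82, whose meaning the labels do not give, so prefix and genotype cannot be told apart. All 10 neuronal, 10 resting astrocyte and 9 measured oligodendrocyte markers lay above the median of all genes in every group, as did 7 or more of 10 pericyte and meningeal markers. In bulk RNA, fewer cells of a type and less RNA per cell cannot be told apart.

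Promoter sequences of 4 genes are shown because 3 of them rose after stroke, because Mt1 is the neighbour and paralog of Mt2, and because their promoters hold the letters through which metals, oxidants or amino acid shortage are known to act. This choice itself ties motif to rise, so the printed windows do not show a link between them. The windows come from RefSeq on GRCm38.p6 and run 5′ to 3′ over the 250 bases before the annotated start. The Mt2 window lies at chr8:94172368-94172617 on the plus strand and the Mt1 window at chr8:94178839-94179088 on the plus strand. The Slc7a11 window lies at chr3:50443614-50443863 on the minus strand, and the Txnrd1 window at chr10:82858956-82859205 on the plus strand. Capitals mark cores of the metal response element in Mt2 and Mt1 (TGCACNC or TGCGCNC on either strand), of the amino acid response element in Slc7a11 (TGATGNAA) and of the antioxidant response element in Txnrd1 (TGACNNNGC, here on the minus strand).
Mt2: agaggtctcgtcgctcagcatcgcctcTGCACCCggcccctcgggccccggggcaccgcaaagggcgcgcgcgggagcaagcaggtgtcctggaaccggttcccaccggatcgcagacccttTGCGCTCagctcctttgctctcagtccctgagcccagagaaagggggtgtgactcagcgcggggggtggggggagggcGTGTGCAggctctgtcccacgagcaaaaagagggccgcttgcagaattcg
Mt1: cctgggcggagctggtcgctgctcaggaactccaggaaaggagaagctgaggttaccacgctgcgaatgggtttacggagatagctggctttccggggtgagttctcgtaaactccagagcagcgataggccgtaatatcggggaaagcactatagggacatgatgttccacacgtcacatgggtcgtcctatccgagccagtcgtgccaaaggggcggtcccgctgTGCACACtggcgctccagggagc
Slc7a11: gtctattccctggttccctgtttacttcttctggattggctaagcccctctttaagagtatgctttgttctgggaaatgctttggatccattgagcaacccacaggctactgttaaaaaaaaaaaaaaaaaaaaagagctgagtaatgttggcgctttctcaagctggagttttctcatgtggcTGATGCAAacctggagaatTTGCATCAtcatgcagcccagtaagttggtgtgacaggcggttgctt
Txnrd1: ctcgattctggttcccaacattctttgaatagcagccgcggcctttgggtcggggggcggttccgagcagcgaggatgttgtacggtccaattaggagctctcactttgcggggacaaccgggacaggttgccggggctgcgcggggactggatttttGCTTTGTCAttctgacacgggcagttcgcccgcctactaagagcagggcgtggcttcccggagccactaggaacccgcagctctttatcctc

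The search covered these windows and the 50 bases that follow each start, on both strands. Mt2 held 4 metal cores, at bases -223 to -217, -128 to -122, -50 to -44 and 5 to 11 from the start, the last outside the printed stretch. Mt1 held 3, at bases -23 to -17, 3 to 9 and 21 to 27, of which the first is printed. Gclm, whose window is not printed, held 3 as well. At least 1 metal core lay in 25.7% of 32851 RefSeq windows of the same length, at least 3 in 1.97% and at least 4 in 0.517%. Mt2 also held an antioxidant core at bases -79 to -71, which contains TGACTCA, the core bound by AP-1 factors. Txnrd1 had 3 windows, and the 1 shown is the only 1 with an antioxidant core, at bases -92 to -84. At least 1 such core lay in 12.4% of all windows, a share for single windows that does not apply to a window picked from 3. Slc7a11 held TGATGNAA at bases -66 to -59 and, on the opposite strand, at -47 to -40, and it held no antioxidant core. TGATGNAA was added after the window had been seen. The 0.07% of windows that held at least 2 therefore does not measure how unusual this match is. No match shared bases with a match to another of these motifs in the 4 windows. Of the 10 genes, 9 had a window, 4 held an antioxidant core (Mt2, Txnrd1, Srxn1 and Gclm) and 5 a metal core (Mt1, Mt2, Mt3, Srxn1 and Gclm). Mt2, Srxn1 and Gclm held both kinds. Of these, Srxn1 and Gclm did not pass after stroke over both genotypes (limma, adjusted p = 0.202 and 0.973). A match describes letters and not a bound site. Mt3, Mt2 and Mt1 are neighbours on chromosome 8, in the order Mt4, Mt3, Mt2, Mt1 among protein-coding genes.

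Over both genotypes, Mt2, Slc7a11 and Txnrd1 rose 24 h after stroke, by 1.36-fold, 1.25-fold and 1.17-fold. No member fell. These are 3 of 10 genes past the threshold of adjusted p = 0.05 (limma, Benjamini-Hochberg over 19938 genes), against 1.78% of all genes that passed in the same direction. Because the 10 genes were chosen with earlier results of these data known, this and later comparisons with all genes are descriptive only. The median change of the 10 genes was 0.22 on the log2 scale, beside 0.00 for all genes. Of the 10 changes 9 were above 0, against 48.9% of all genes. The individual changes ran from -0.11 for Mt3 to 0.45 for Mt2, all far below that of Hmox1, another Nrf2 target, at 1.71 ± 0.16 (adjusted p = 1.7e-06).

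**Figure D1:**
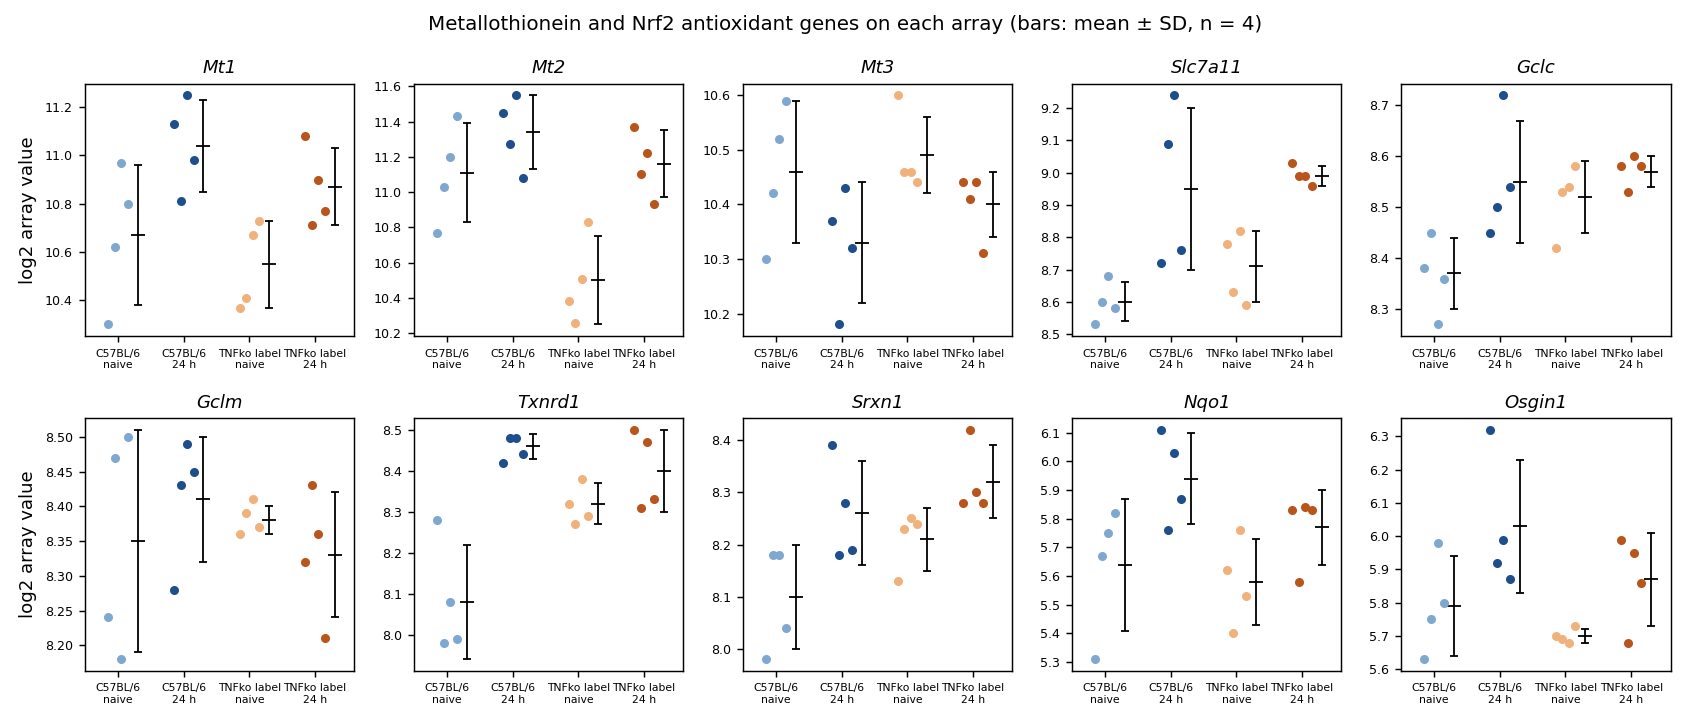
Log2 array values of the 10 genes, 1 panel a gene with its own axis, in the 4 groups. Points are arrays and bars the mean ± SD (n = 4). Slc7a11 is the gene whose stroke arrays all lie above the naive arrays in both genotypes, and the naive arrays labelled TNF knockout are the lowest group for Mt2.

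Mt1 differed from naive by similar amounts in both genotypes without passing the test. In naive C57BL/6 brain, arrays 1 to 4 gave log2 values of 10.30, 10.62, 10.97 and 10.80, and after stroke 11.13, 10.81, 11.25 and 10.98. In the arrays labelled TNF knockout, Mt1 read 10.37, 10.41, 10.67 and 10.73 in naive brain and 11.08, 10.71, 10.90 and 10.77 after stroke. The groups overlapped in both genotypes: the highest naive arrays reached the lower stroke arrays. The difference was 0.37 ± 0.13 (SE) in C57BL/6 (adjusted p = 0.161) and 0.32 ± 0.13 under the knockout label (adjusted p = 0.488). Over both genotypes it was 0.35 ± 0.09, with a 95% interval from 0.15 to 0.54, and missed the threshold narrowly (adjusted p = 0.0508). It passed in 4 of 16 leave-one-out fits, each without a single array (without naive array 3 or stroke array 2 of C57BL/6, or naive array 4 or stroke array 2 under the knockout label), with the adjusted p down to 0.0248. Centring on array medians, leaving out dim genes, a trended variance and the replicate block also took it past the threshold (adjusted p = 0.0472, 0.027, 0.02 and 0.0281).

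Mt2 rose under the knockout label and in the mean of both genotypes. In naive C57BL/6 brain its log2 values were 10.77, 11.03, 11.20 and 11.43, and after stroke 11.45, 11.27, 11.55 and 11.08. The arrays labelled TNF knockout gave 10.38, 10.26, 10.51 and 10.83 in naive brain and 11.37, 11.10, 11.22 and 10.93 after stroke. In these arrays every stroke value lay above every naive value, while in C57BL/6 the highest naive array exceeded stroke arrays 2 and 4. In order of level, naive brain labelled TNF knockout came first with 10.50 ± 0.25 (SD, n = 4), then naive C57BL/6 with 11.11 ± 0.28, stroke under the knockout label with 11.16 ± 0.19 and stroke C57BL/6 with 11.34 ± 0.21, and the upper 3 groups overlapped with each other. The lowest group overlapped with naive C57BL/6 and with neither stroke group. The change under the knockout label was 0.66 ± 0.14 (SE), or 1.58-fold (adjusted p = 0.0324), and in C57BL/6 the difference was 0.23 ± 0.14 (adjusted p = 0.425). Over both genotypes the change was 0.45 ± 0.10 (adjusted p = 0.0175), past the threshold in all 16 leave-one-out fits.

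The difference of Mt2 under the knockout label kept its size when single arrays were left out, between 0.58 and 0.77, while its call did not always hold. It passed in 10 of the 16 fits and was lost without naive array 1, 2 or 3 or stroke array 1, 2 or 3 of that label, with the adjusted p reaching 0.154. With a term for the prefix, the difference was 0.62 for this contrast and 0.43 for the mean of both genotypes, and neither passed (adjusted p = 0.171 and 0.0613). Prefix KL76 holds 3 naive arrays and 1 stroke array, and KL82 1 naive and 3 stroke arrays. Stroke minus naive for Mt2 was 0.99 within KL76 and 0.25 within KL82, and for Mt1 it was 0.60 and 0.06. For Slc7a11 the 2 values were 0.29 and 0.39 and for Txnrd1 0.18 and 0.08, and all carry 1 array on 1 side, so they have no error. What the prefix stands for was not tested.

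**Figure D2:**
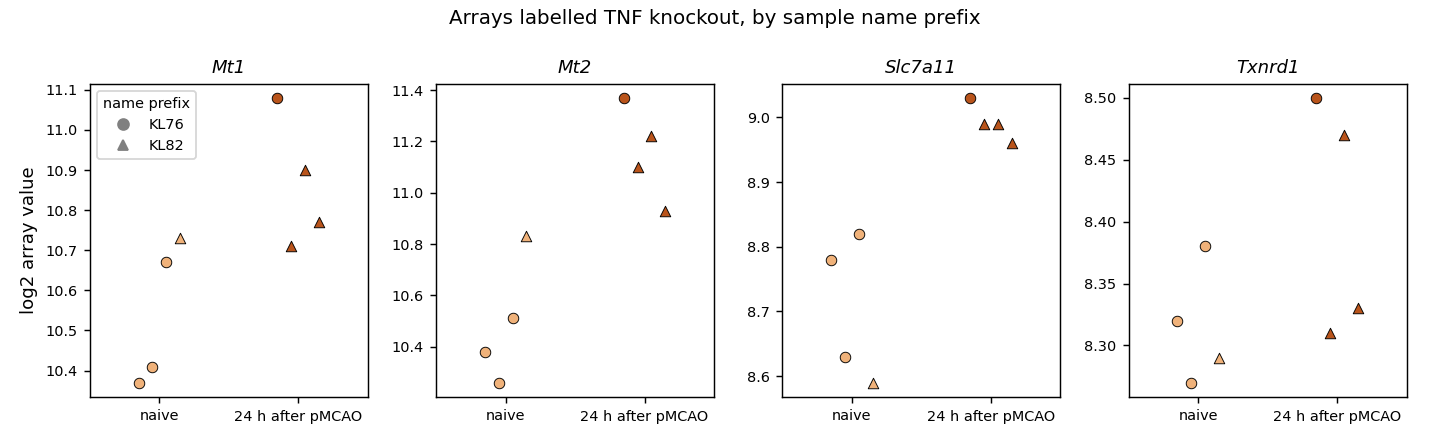
Log2 array values of Mt1, Mt2, Slc7a11 and Txnrd1 in the 8 arrays labelled TNF knockout, naive and 24 h after pMCAO. Symbols give the sample name prefix (circles KL76, triangles KL82). For Mt1 and Mt2 the naive KL82 array is the highest naive array, and the stroke KL76 array is the highest stroke array.

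Mt1 and Mt2 are close paralogs, and how far each probe set also hybridises to the other transcript was not tested. Mt1 and Mt2 had their highest array in common in 3 of the 4 groups: stroke array 3 of C57BL/6, and naive array 4 and stroke array 1 under the knockout label. After each gene's own mean was subtracted, their root mean square difference over the 16 arrays was 0.21 on the log2 scale. Mt1 was closer to Nqo1, at 0.13, and to Osgin1, at 0.16. This distance is not scaled by spread, so genes that vary more between arrays tend to lie farther from others.

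Mt3, the brain form, gave differences below 0 that did not pass the test. Its group means were 10.46 ± 0.13 (SD, n = 4) in naive and 10.33 ± 0.11 in stroke C57BL/6 brain, and 10.49 ± 0.07 and 10.40 ± 0.06 under the knockout label. The groups overlapped in both genotypes. Over both genotypes the difference was -0.11 ± 0.06 (SE; 95% interval from -0.23 to 0.01; adjusted p = 0.346), an interval that lies below those of Mt1 (0.15 to 0.54) and Mt2 (0.23 to 0.66).

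Among the genes of glutathione supply Slc7a11 rose. It encodes the cystine-importing subunit of the exchanger system xc-, which brings in cystine for glutathione and lets out glutamate. In C57BL/6 brain its log2 values were 8.53, 8.60, 8.68 and 8.58 in naive arrays and 8.72, 9.09, 9.24 and 8.76 after stroke. In the arrays labelled TNF knockout it read 8.78, 8.63, 8.82 and 8.59 in naive arrays and 9.03, 8.99, 8.99 and 8.96 after stroke. All stroke arrays lay above all naive arrays in each genotype, and Slc7a11 was the 1 member of 10 for which this held, against 0.667% of all genes. In C57BL/6, stroke arrays 2 and 3 stood well above stroke arrays 1 and 4 (SD 0.25), whereas the stroke arrays under the knockout label agreed closely (SD 0.03).

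Slc7a11 rose by 0.32 ± 0.07 (SE) over both genotypes (adjusted p = 0.0148), in all 16 leave-one-out fits and with every other setting tried for that contrast. In the single genotypes the differences were 0.36 ± 0.10 in C57BL/6 (adjusted p = 0.0763) and 0.29 ± 0.10 under the knockout label (adjusted p = 0.341), neither past the threshold. Without stroke array 1 the C57BL/6 difference was 0.43 and passed (adjusted p = 0.0235). It also passed with dim genes left out, with a trended variance and with the replicate block (adjusted p = 0.0405, 0.038 and 0.0467). Slc3a2, the heavy chain that carries Slc7a11 to the cell surface, also rose. Its group means were 10.67 ± 0.11 (SD, n = 4) and 10.93 ± 0.04 in naive and stroke C57BL/6 brain and 10.56 ± 0.09 and 10.79 ± 0.08 under the knockout label, without overlap in either genotype. The change over both genotypes was 0.24 ± 0.05 (SE; adjusted p = 0.0179), lost only without naive array 2 under the knockout label (adjusted p = 0.0511).

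Gclc and Gclm encode the catalytic and modifier subunits of glutamate-cysteine ligase, the rate-limiting enzyme of glutathione synthesis. Gclc had group means of 8.37 ± 0.07 (SD, n = 4) and 8.55 ± 0.12 in naive and stroke C57BL/6 brain and 8.52 ± 0.07 and 8.57 ± 0.03 under the knockout label. The C57BL/6 groups met at 8.45, the highest naive and lowest stroke value. Over both genotypes the difference was 0.12 ± 0.05 (SE; adjusted p = 0.255). Gclm read 8.35 ± 0.16 and 8.41 ± 0.09 in C57BL/6 and 8.38 ± 0.02 and 8.33 ± 0.09 under the knockout label, and its difference of 0.01 ± 0.06 had a 95% interval from -0.12 to 0.13 (adjusted p = 0.973).

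Txnrd1, the cytosolic thioredoxin reductase that recycles thioredoxin with NADPH, rose in C57BL/6 brain. Its log2 values were 8.28, 7.98, 8.08 and 7.99 in naive and 8.42, 8.48, 8.48 and 8.44 in stroke C57BL/6 arrays. Under the knockout label they were 8.32, 8.27, 8.38 and 8.29 in naive arrays and 8.50, 8.31, 8.47 and 8.33 after stroke. The C57BL/6 groups did not overlap, with the stroke arrays between 8.42 and 8.48, while under the knockout label stroke arrays 2 and 4 lay among the naive arrays. The change in C57BL/6 was 0.37 ± 0.08 (SE), or 1.29-fold (adjusted p = 0.0183), and the difference under the knockout label was 0.09 ± 0.08 (adjusted p = 0.866). The C57BL/6 call held in 12 of the 16 leave-one-out fits and was lost without naive array 2 or 4 or stroke array 2 or 3 (adjusted p up to 0.0636), and in a fit of the 8 C57BL/6 arrays alone (adjusted p = 0.0922). The mean of both genotypes, 0.23 ± 0.06 (adjusted p = 0.0263), passed in 9 of the 16. It was lost without naive array 2 or 4 or stroke array 3 of C57BL/6, or without naive array 1 or 2 or stroke array 1 or 3 under the knockout label (adjusted p up to 0.0658).

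Srxn1 encodes sulfiredoxin, which restores over-oxidised peroxiredoxins. Its values under the knockout label were 8.13, 8.23, 8.25 and 8.24 in naive arrays and 8.28, 8.42, 8.30 and 8.28 after stroke, close together but without overlap. In C57BL/6 they were 7.98, 8.18, 8.18 and 8.04 in naive arrays and 8.39, 8.18, 8.28 and 8.19 after stroke, and the groups met at 8.18. The difference over both genotypes was 0.14 ± 0.05 (SE; adjusted p = 0.202), which did not pass.

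Nqo1, a quinone reductase and a standard readout of Nrf2, had values of 5.31, 5.67, 5.75 and 5.82 in naive and 6.11, 5.76, 6.03 and 5.87 in stroke C57BL/6 arrays. The arrays labelled TNF knockout gave 5.62, 5.40, 5.76 and 5.53 in naive arrays and 5.83, 5.58, 5.84 and 5.83 after stroke. In each genotype stroke array 2 lay below the highest naive array and the other stroke arrays lay above it, and naive array 1 of C57BL/6 was the lowest of all. Its difference over both genotypes was 0.25 ± 0.08 (SE; adjusted p = 0.102). Osgin1, an Nrf2-induced inhibitor of cell growth, had group means of 5.79 ± 0.15 (SD, n = 4) and 6.03 ± 0.20 in C57BL/6 and 5.70 ± 0.02 and 5.87 ± 0.14 under the knockout label, with overlap in both genotypes. The difference was 0.20 ± 0.07 (SE; adjusted p = 0.141). Group means of both genes lay at or under the array medians of 6.01 to 6.05, and the deposited table has no detection call to say how far they exceed background.

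**Figure D3:**
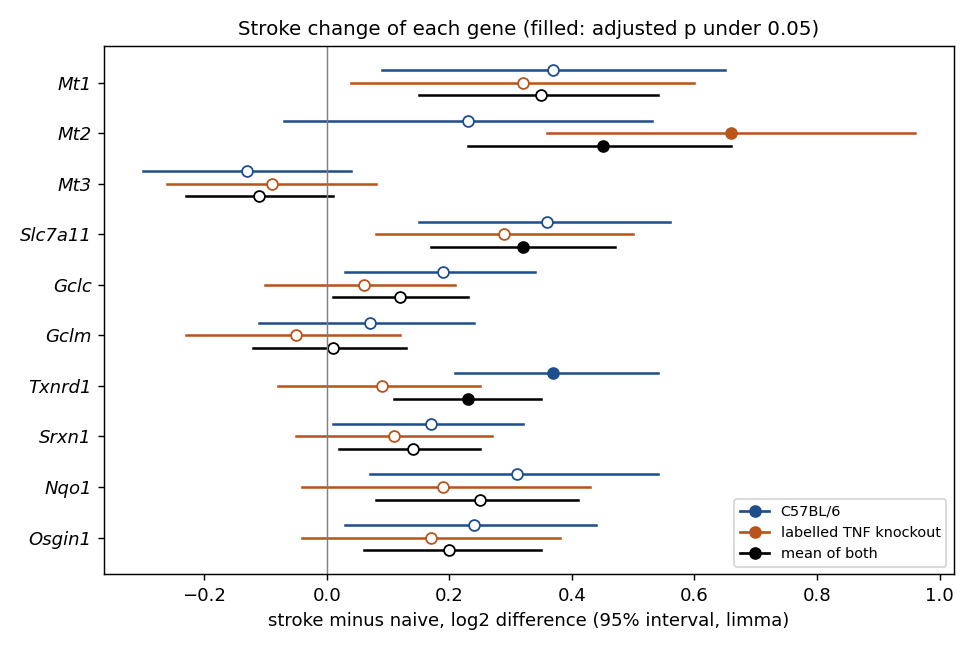
Stroke minus naive for the 10 genes as log2 differences with 95% intervals from limma, in C57BL/6 (blue), under the knockout label (orange) and as the mean of both (black). Filled points have an adjusted p under 0.05: Txnrd1 in C57BL/6, Mt2 under the knockout label, and Mt2, Slc7a11 and Txnrd1 in the mean of both.

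Taken by genotype, 1 of the 10 genes rose in C57BL/6 brain (Txnrd1), against 1.34% of all genes that rose there. Under the knockout label 1 of 10 rose (Mt2), against 0.537% of all genes. Stroke arrays lay wholly above naive arrays for 2 members in C57BL/6 (Slc7a11 and Txnrd1), against 5.03% of all genes, and for 3 under the knockout label (Mt2, Slc7a11 and Srxn1), against 2.80%. The median difference of the 10 genes was 0.23 in C57BL/6, beside -0.01 for all genes, and 0.14 under the knockout label, beside 0.00. At an unadjusted p under 0.05, 7 members stood in C57BL/6, against 17.1% of all genes, and 3 under the knockout label, against 8.39%. For 8 of the 10 genes the difference was above 0 in both genotypes, the exceptions being Mt3 and Gclm. Of all genes, 48.3% were above 0 in C57BL/6 and 49.3% under the knockout label.

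In some groups, a single array held the highest or lowest value for many of the 10 genes. How often the same arrays were highest or lowest over all genes was not counted. Among naive arrays under the knockout label the highest values were split, with 5 genes on array 3, 4 on array 4 and 1 on array 1. In naive C57BL/6 brain, array 1 was the lowest of its group for 7 of the 10 (Mt1, Mt2, Mt3, Slc7a11, Srxn1, Nqo1 and Osgin1), although it was the highest for Txnrd1. After stroke, array 3 of C57BL/6 was the highest for 6 (Mt1, Mt2, Mt3, Slc7a11, Gclc and Gclm), and array 1 under the knockout label for 6 (Mt1, Mt2, Mt3, Slc7a11, Txnrd1 and Osgin1). Stroke array 3 of C57BL/6 also had the highest Hmox1 value of its group, at 8.08, and naive array 1 the lowest, at 5.25.

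No member differed between the genotype labels past the threshold, in naive brain (against 0.386% of all genes that passed) or after stroke (against 0.436%). At an unadjusted p under 0.05 there were 2 members in naive brain (Mt2 and Txnrd1), against 16.6% of all genes, and 0 after stroke, against 11.3%. Mt2 was lower in naive brain labelled TNF knockout by a difference of -0.61 ± 0.14 (SE; 95% interval from -0.91 to -0.32; adjusted p = 0.0676), which overlapped with C57BL/6 through C57BL/6 array 1 and array 4 of the knockout label. Leaving out either of those arrays, normalising by quantiles, centring each array on its median, leaving out dim genes or a trended variance took its adjusted p below the threshold, to between 0.0267 and 0.0499. Txnrd1 gave 0.23 ± 0.08 in the opposite direction (adjusted p = 0.155). After stroke the genotype difference was -0.18 ± 0.14 for Mt2 (adjusted p = 0.673) and -0.05 ± 0.08 for Txnrd1 (adjusted p = 0.854).

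Some cell type markers differed between the genotype labels past the threshold after stroke, and none did in naive brain. The shares of all genes that passed were 0.436% after stroke and 0.386% in naive brain. Of all genes, 48.8% had a difference above 0 between the labels in naive brain and 47.4% after stroke. In naive brain 8 of 9 oligodendrocyte markers were below 0 under the knockout label, with a median of -0.27 beside -0.01 for all genes, and 0 passed (limma, adjusted p; that of Cnp, with a difference of -0.28 ± 0.08 (SE) and an unadjusted p of 0.00183, was 0.101). After stroke all 9 were below 0, with a median of -0.38, and Cnp and Mal, both genes of myelin, were lower by differences of -0.46 ± 0.08 and -0.53 ± 0.10 (adjusted p = 0.00503 and 0.0151). The call of Cnp held in all 16 leave-one-out fits, and that of Mal was lost without stroke array 4 of C57BL/6 or stroke array 1 or 4 under the knockout label (adjusted p up to 0.0761). All 9 markers of activated microglia and macrophages were below 0 after stroke, with a median of -0.24 against 0.02 in naive brain, and Cd68, a lysosomal protein of phagocytes, passed at -0.38 ± 0.08 (adjusted p = 0.034). All 9 endothelial markers were below 0 after stroke too, with a median of -0.22 against -0.05 in naive brain, and Cldn5, a tight junction protein, passed at -0.54 ± 0.11 (adjusted p = 0.0396). Cd68 passed in 10 of the 16 fits, being lost without stroke array 2, 3 or 4 of C57BL/6 or stroke array 1, 2 or 4 under the knockout label (adjusted p up to 0.154). Cldn5 passed in 5, those without naive array 1, 2 or 4 or stroke array 3 of C57BL/6 or naive array 1 under the knockout label (adjusted p otherwise up to 0.169), and neither passed when the stroke arrays were fitted alone (adjusted p = 0.132 and 0.0644). Of 9 resident microglia markers, 8 were below 0 after stroke, with a median of -0.21 against 0.08 in naive brain, and none passed. Other lists lay mostly above 0 after stroke. These were neutrophil and monocyte markers (7 of 9, median 0.04) and pericyte, smooth muscle and meningeal markers (8 of 10, median 0.06). Reactive astrocyte markers had medians of 0.08 in naive brain and 0.09 after stroke. The part of these cell types in the members' genotype differences was not tested.

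Whether the stroke change itself differed between the genotype labels was tested by the difference of the 2 changes. For Mt2 it was 0.43 ± 0.20 (SE; unadjusted p = 0.0453; limma, adjusted p = 0.669), and for Txnrd1 -0.29 ± 0.11 (unadjusted p = 0.0182; limma, adjusted p = 0.593). Neither passed, so the calls of Mt2 under the knockout label and of Txnrd1 in C57BL/6 are not shown to be particular to those genotypes. Of all 19938 genes 0 passed this test, and 1480 had an unadjusted p under 0.05 (7.42%), among them these 2 members. The other 8 differences ran from -0.13 for Gclc to 0.04 for Mt3, and that of Slc7a11 was -0.07 ± 0.14, with a 95% interval from -0.36 to 0.23.

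Among 14 regulators of Nrf2, Nfe2l2 itself rose and the other 13 did not pass in the mean of both genotypes. Its log2 values were 6.97, 7.04, 7.09 and 7.08 in naive and 7.22, 7.43, 7.55 and 7.46 in stroke C57BL/6 arrays. Arrays labelled TNF knockout read 6.86, 7.01, 7.09 and 7.04 in naive arrays and 7.29, 7.38, 7.29 and 7.21 after stroke. The groups did not overlap in either genotype. The change was 0.33 ± 0.06 (SE) over both genotypes (adjusted p = 0.00209), in all 16 fits, and 0.37 ± 0.08 in C57BL/6 (adjusted p = 0.0234), which was lost in 5 of the 16 fits (without naive array 1 or 2 or stroke array 2, 3 or 4) and when C57BL/6 arrays were fitted alone (adjusted p = 0.0983). Under the knockout label the difference was 0.29 ± 0.08 (adjusted p = 0.156). Bach1 and Bach2 encode repressors that compete for antioxidant elements, and their differences were 0.12 ± 0.06 and -0.22 ± 0.07 (adjusted p = 0.372 and 0.0933). The median of the 14 was 0.03, beside 0.00 for all genes, and 1 of 14 rose, against 1.78% of all genes.

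Of 25 measured Nrf2 targets other than the 10 genes, 2 rose over both genotypes and none fell, with a median of 0.06. Of all genes, 1.78% rose. Hmox1, which breaks down haem and is also induced by haem through Bach1, rose by 3.28-fold, and its differences were 1.20 within prefix KL76 and 1.85 within KL82. Pgd, an NADPH-producing enzyme of the pentose phosphate path, rose by 0.25 ± 0.06 (SE; adjusted p = 0.0237), with no overlap in either genotype. That call held in 10 of 16 fits (lost without naive array 2 or stroke array 3 of C57BL/6, or naive array 1 or 2 or stroke array 3 or 4 under the knockout label) and was lost when the prefix was a term (adjusted p = 0.0937). Ftl1, the ferritin light chain, gave 0.26 ± 0.07 and Ugdh, which makes the donor for glucuronidation, 0.19 ± 0.06, neither past the threshold (adjusted p = 0.0678 and 0.079).

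**Figure D4:**
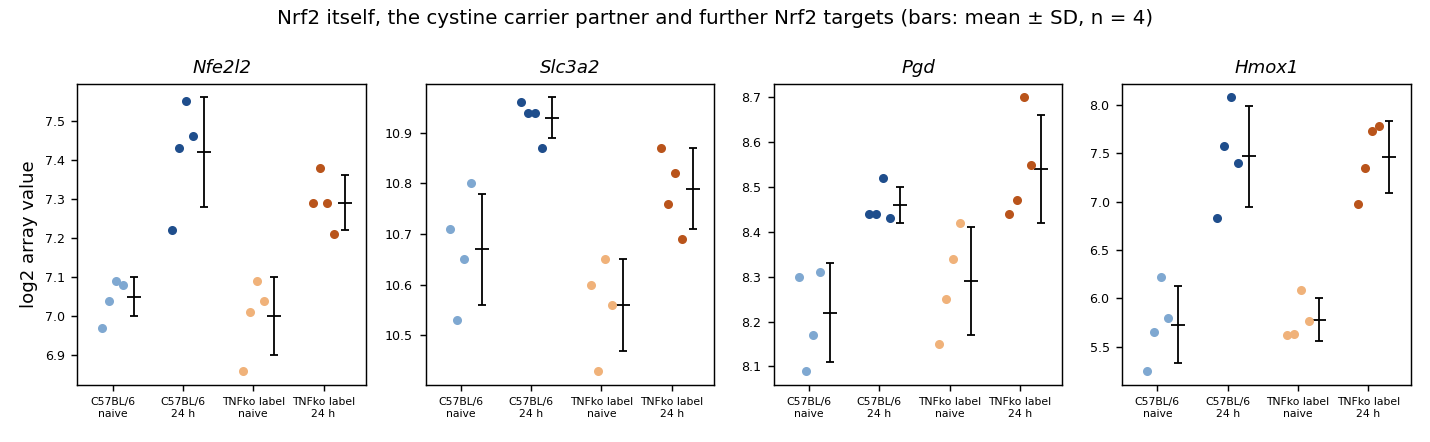
Log2 array values of Nfe2l2 (Nrf2), Slc3a2, Pgd and Hmox1 in the 4 groups, 1 panel a gene with its own axis. Points are arrays and bars the mean ± SD (n = 4). For each of the 4 genes the stroke arrays lie above the naive arrays in both genotypes.

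In the glutathione list, 1 of 21 genes rose over both genotypes, Slc3a2, against 1.78% of all genes, and the median was 0.07. Its next genes by p were Slc1a4, Cth and Cbs, with differences of 0.16 ± 0.07, 0.18 ± 0.07 and 0.11 ± 0.06 that did not pass. Cbs, which starts the path from homocysteine to cysteine, was lower under the knockout label after stroke by a difference of -0.50 ± 0.08 (SE; adjusted p = 0.00429), the 1 gene of the glutathione list past the threshold in a comparison of genotype labels. Of 16 thioredoxins, peroxiredoxins, dismutases and catalase, 0 passed over both genotypes, and the median was 0.04. Their smallest p-values belonged to Msrb2, at 0.16 ± 0.06, and Prdx3, at 0.15 ± 0.06 (limma, adjusted p = 0.168 and 0.206).

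Among 20 zinc and metal genes, 1 rose and 2 fell over both genotypes. Of all 19938 genes, 559 passed in either direction there, and 354 of them rose. Slc39a1 (Zip1), a zinc importer of the plasma membrane, rose by 0.33 ± 0.07 (SE; adjusted p = 0.00745). Slc30a3 (ZnT3), which loads zinc into synaptic vesicles of glutamatergic neurons, fell by 0.45 ± 0.06 on the log2 scale (adjusted p = 0.000192), from 9.13 ± 0.12 (SD, n = 4) to 8.56 ± 0.11 in C57BL/6 and from 8.85 ± 0.10 to 8.53 ± 0.11 under the knockout label, with no overlap in either. Slc30a10, an exporter of manganese, fell by 0.21 ± 0.06, a call at the threshold (adjusted p = 0.0496) that held in 1 of the 16 fits, the 1 without stroke array 4 of C57BL/6, and was lost when the prefix was a term (adjusted p = 0.0536). Slc39a14 (Zip14), a zinc and iron importer, gave 0.23 ± 0.08 (adjusted p = 0.137).

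Lists for other inducers of these genes were read in the same way, beside the 1.78% of all genes that rose over both genotypes. Of 15 Atf4 targets and genes of the integrated stress response, through which Slc7a11 is also induced, Atf3 rose, by 0.79 ± 0.10 (SE; adjusted p = 5.6e-05), and 14 did not pass, among them Psat1 at 0.11 ± 0.05 and Chac1 at -0.10 ± 0.05. Of 13 glucocorticoid-responsive genes 4 rose (Lcn2, Map3k6, Sult1a1 and Fkbp5), with a median of 0.23. Fkbp5, a feedback inhibitor of the glucocorticoid receptor, rose by 0.32 ± 0.07 (adjusted p = 0.0203), lost without naive array 1 under the knockout label (adjusted p = 0.0526) and with a term for the prefix (adjusted p = 0.0518). Of 14 Stat3 pathway genes 10 rose, with a median of 0.54; Socs3, the feedback inhibitor of this pathway, rose by 0.72 ± 0.08 (adjusted p = 8.0e-06).

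**Figure D5:**
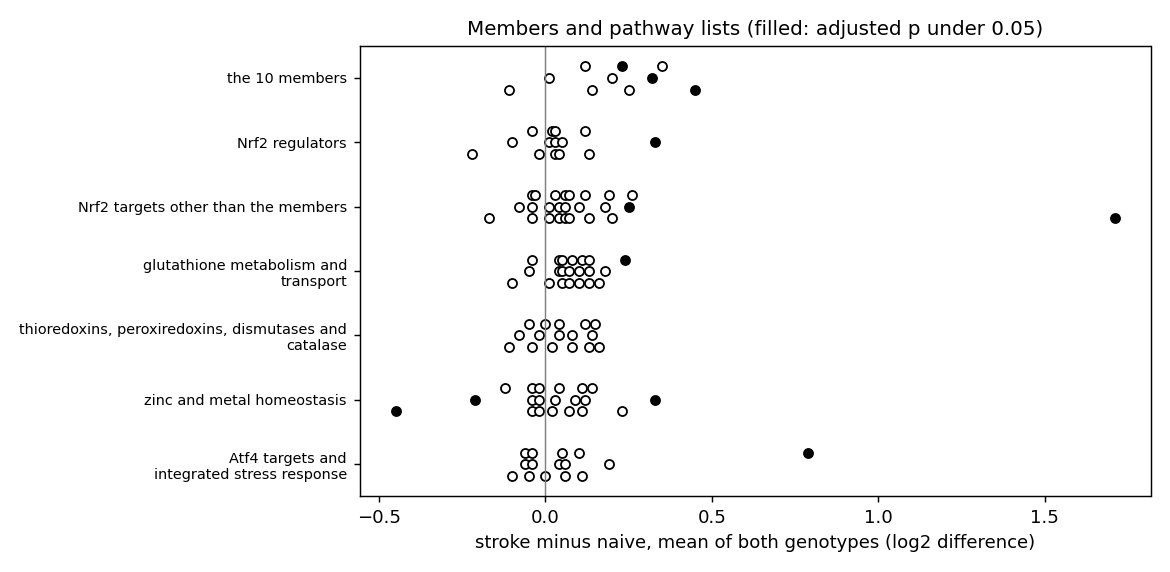
Stroke minus naive as the mean of both genotypes (log2 difference) for the 10 genes and 6 related lists, 1 point a gene, with height within a row used only to separate points. Filled points have an adjusted p under 0.05. The point at 1.71 is Hmox1, that at 0.79 is Atf3 and the lowest, at -0.45, is Slc30a3.

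Markers of several cell types moved with stroke too, where 1.78% of all genes rose over both genotypes. All 10 reactive astrocyte markers rose over both genotypes, with a median of 0.77. Of these, Lcn2 is also in the glucocorticoid list, and Serpina3n, Osmr and Gfap, among others, are also in the Stat3 list. The counts of these lists are therefore not separate readings. Their mean level ran from 5.99 to 6.27 in naive and from 6.87 to 7.67 in stroke C57BL/6 arrays, and from 6.03 to 6.27 and 7.19 to 7.37 under the knockout label. Of 10 resting astrocyte markers, Gjb6, a connexin, was the 1 that rose (0.33 ± 0.08; adjusted p = 0.0249), lost without naive array 1 or stroke array 3 of C57BL/6 or stroke array 3 under the knockout label (adjusted p up to 0.0591), and the median was 0.01. Their mean level stayed between 9.55 and 9.74 on all arrays. The part of reactive astrocytes in the changes of Mt2, Slc7a11 and Txnrd1 was not tested.

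Of 9 markers of activated microglia and macrophages 5 rose, with mean levels from 5.74 to 5.85 in naive and 6.33 to 6.64 in stroke C57BL/6 arrays, and 5.72 to 5.88 and 6.12 to 6.27 under the knockout label. Of 9 resident microglia markers, Fcrls rose and Siglech fell. Of 9 neutrophil and monocyte markers Clec4d rose (0.75 ± 0.15; adjusted p = 0.00817), while the mean level of the list was 3.77 to 4.05 in naive and 3.89 to 4.22 in stroke arrays, and 0 of its 9 genes lay above the median of all genes in any group. Of 9 endothelial markers, Mfsd2a and Slc2a1 rose, the latter in 4 of the 16 fits (those without naive array 3 or stroke array 4 of either genotype; adjusted p otherwise up to 0.102). Of 10 neuronal markers Tubb3 fell, and the median was -0.03. Of 10 pericyte, smooth muscle and meningeal markers Rgs5 fell, and none of 9 oligodendrocyte, 10 choroid plexus and ependymal or 4 red blood cell markers passed over both genotypes. The part of each of these cell types in the members' changes was not tested.

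For each of the 3 genes that rose over both genotypes, the 4 genes with the most similar profile over the 16 arrays were found by root mean square difference after each gene's mean was subtracted. Slc7a11 was closest to Ampd3, at 0.070, then to Fgf2, Gpr182 and Fosl1, at 0.099 to 0.107. Ampd3 read 7.46 ± 0.08 (SD, n = 4) and 7.86 ± 0.18 in naive and stroke C57BL/6 arrays, and like Slc7a11 had stroke arrays 2 and 3 above stroke arrays 1 and 4. Txnrd1 was closest to Wdr82, Ehd2, Mdm2 and Pccb, at 0.089 to 0.094. The nearest genes to Mt2 were farther away, Themis2, Il1r2, Mt1 and Fcer1g at 0.209 to 0.227. Among all these nearest genes Mt1 was the 1 that is itself a member. The distance is not scaled by a gene's spread, and group SDs ran from 0.19 to 0.28 for Mt2 and from 0.03 to 0.14 for Txnrd1. The larger distances of Mt2 therefore do not show a less shared profile.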

How the data were processed

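Total RNA of 16 brain samples was measured on Affymetrix Mouse Gene 1.0 ST arrays. The deposited table holds the authors' normalized log2 values for 28944 probe sets, to 2 decimals. The submitters' processing notes name GCOS, Partek, RMA and GCRMA, with neither role nor order, and the sources used here do not give the genome build. Array medians ran from 6.01 to 6.05 and correlations within groups from 0.991 to 0.996, and the number of arrays limits the precision.

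Of the probe sets, 21789 had 1 symbol in GEO's platform annotation, 1621 several and 5534 none, and the probe set with the highest mean was kept for each of 19938 genes. In R 4.3.3, limma 3.58.1 fitted the 4 group means over all 16 arrays (eBayes, two-sided, 12 residual degrees of freedom, Benjamini-Hochberg over all genes, threshold 0.05). The script was tested on simulated data. Alternatives were quantile normalization, median centring, a filter on dim genes, the mean of probe sets, trended and robust variances, fits of the compared groups alone, a replicate block, a term for the sample name prefix, an exact permutation test and leaving out each array. Replicate numbers were not taken as pairs, although same-numbered arrays were somewhat more alike by the check given with the block.

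All 10 members are named, with up to 4 genes a list by smallest p over both genotypes, Tnf, and the 4 genes nearest to each member that passed. Outside this rule, Mal and Cldn5 were chosen once their values had been seen. The members, the lists (237 of 255 entries matched) and the motifs were chosen with earlier results of these data known. Promoters are those of RefSeq on GRCm38.p6.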

Additional observations from a re-analysis of the deposited data

Results flagged for a closer look

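Within each group of 4 arrays, the value farthest from the others was compared with the group's range for each of the 10 genes. Of 40 such groups 4 held an array that stood apart, where chance gives about 2. All 4 lie under the knockout label. Mt3 read 10.60 on naive array 1, the highest of its group, with the others between 10.44 and 10.46. Srxn1 read 8.13 on the same naive array, the lowest, with the others between 8.23 and 8.25, and 8.42 on stroke array 2, the highest, with the others between 8.28 and 8.30. Nqo1 read 5.58 on stroke array 2, the lowest, with the others between 5.83 and 5.84. None of the 3 genes passed the test in any comparison.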

How the results depend on the processing

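Across 60 gene-by-comparison values recomputed 1490 times under other settings, 1431 kept their direction and side of the threshold, 20 lost and 21 gained the call, and 18 changed sign, all of them differences near 0 that passed neither way. With quantile normalization these were Gclm between genotypes in naive brain (-0.02) and the difference of stroke changes of Mt1 (0.02) and Srxn1 (0.01). With single arrays left out, the ranges that crossed 0 were those between genotypes in naive brain of Mt3 (-0.02 to 0.08) and Gclm (-0.02 to 0.09), between genotypes after stroke of Gclc (-0.01 to 0.08) and Slc7a11 (-0.04 to 0.14), of the difference of stroke changes for Mt1 (-0.15 to 0.07), Mt3 (-0.01 to 0.10), Slc7a11 (-0.15 to 0.03) and Osgin1 (-0.13 to 0.03), and of Gclm over both genotypes (-0.02 to 0.03). In C57BL/6 the count of members that rose, 1 (Txnrd1), was 2 (Slc7a11 added) with dim genes left out, with a trended variance, with the replicate block and by the exact permutation test (unadjusted, smallest possible p = 0.0286), 0 when C57BL/6 was fitted alone, and 0 to 2 when 1 array was left out. Under the knockout label the count, 1, was 0 with the prefix as a term, 3 by the exact permutation test and 0 to 1 without 1 array. Between genotypes in naive brain the count, 0, was 1 (Mt2) with quantile normalization, median centring, dim genes left out or a trended variance, and 0 to 1 without 1 array. The count over both genotypes, 3, was 4 (Mt1 added) with median centring, dim genes left out, a trended variance or the replicate block, 2 with the prefix as a term (Mt2 lost), and 2 to 4 without 1 array. The cause of these shifts was not tested.

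Deviations of same-numbered arrays from their group means correlated between -0.0746 and 0.34 (24 pairs, median 0.0876, 10 over 0.1), and those of different-numbered arrays between -0.324 and 0.237 (72 pairs, median -0.0404, 9 over 0.1). Same-numbered arrays were thus somewhat more alike. The numbers were not taken as pairs because not every pair was over 0.1, which does not show that same-numbered arrays are unrelated. With the replicate block, genes past the threshold went from 334 to 559 in C57BL/6 and from 559 to 765 over both genotypes. All-gene counts ranged over the other settings and single arrays left out from 98 to 639 in C57BL/6, 69 to 145 under the knockout label, 23 to 185 and 46 to 165 between genotypes in naive and stroke brain, 0 to 3 for the difference (main 0) and 332 to 765 over both. The extremes without 1 array came in C57BL/6 from leaving out its stroke array 3 (107) or 1 (639), under the knockout label its stroke array 4 (69), over both genotypes naive array 1 of the knockout label (369), between genotypes in naive brain C57BL/6 array 3 (23) or knockout label array 1 (138), after stroke C57BL/6 array 4 (47), and for the difference naive C57BL/6 array 2 (3). Nqo1 and Osgin1 lay near the array medians, and how far they exceeded background is not known.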
